A study of Homo sapiens with 4 samples.

Results

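The proteasome genes described here are the 48 rows of the expression table whose symbol begins with PSM, followed by 1 letter from A to G and a number, out of 19826 gene rows. They comprise the alpha (PSMA) and beta (PSMB) subunits of the 20S core, the ATPases (PSMC) and other subunits (PSMD) of the 19S cap, the activators and the inhibitor (PSME, PSMF1) and the assembly chaperones (PSMG1 to PSMG4 with PSMD5, PSMD9 and PSMD10). The rule uses the symbol and no expression value, though the group was proposed with earlier results of these data known. The cells were BE(2)C:MYCN-ORF, a derivative of the human MYCN-amplified neuroblastoma line BE(2)C whose label names a MYCN open reading frame. All 4 groups share that line, and the labels do not say what drives the open reading frame or whether the line is 1 clone. Each culture received 1 of 2 siRNAs, siCon (control) or siMYCN, together with 1 of 2 miRNA mimics, miRCon (control) or let-7a, which makes 4 groups. In what follows the library with siCon and miRCon is the one with neither treatment, and siMYCN or let-7a alone means with the control of the other kind. PolyA RNA was taken 48 hours after transfection, from 1 library per group. With no replicates, the spread within a group cannot be measured.

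The 26S proteasome degrades proteins tagged with ubiquitin. Its 20S core is a stack of alpha and beta rings whose catalytic sites sit on PSMB5, PSMB6 and PSMB7, and the 19S cap binds, deubiquitinates, unfolds and feeds substrates into it. Chaperones hold the parts during assembly and then leave, and the transcription factor NFE2L1 raises many subunit genes together when the proteasome is inhibited.

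Values are TPM-like, that is, relative to transcript length and to each library's total, so they are compared between genes on that scale. They summed to between 855811 and 862049 per library, and read depth is unknown. Mitochondrially encoded transcripts accounted for 31.6% and 32.1% of siCon libraries against 28.4% and 29.3% of siMYCN libraries, so nuclear genes gained share with siMYCN. MYCN itself was at 1449 and 1433 in the siCon libraries and at 1238 and 1197 in the siMYCN libraries (log2 difference -0.24 ± 0.047 SE; limma, Benjamini-Hochberg adjusted p = 0.0584). LIN28B, a known let-7 target and inhibitor of let-7 processing, was at 157 with neither treatment, 96.5 with let-7a alone, 118.5 with siMYCN alone and 55.5 with both. Its let-7a log2 difference was -0.89 ± 0.11 SE and did not pass the test (limma, Benjamini-Hochberg adjusted p = 0.663). All 8 neuroblastoma marker genes were present, with summed levels from 1854 to 2557. Of 4 fibroblast markers 3 were above the test's level filter (sums from 206.7 to 247.2 per library), while the 4 epithelial markers summed to at most 7.77 and the 4 blood markers to at most 0.382. The part of other cell types in the results below was not tested. In bulk RNA, fewer cells of a type and less RNA per cell cannot be told apart.

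Most subunits of the assembled particle were abundant, though the highest and lowest of those tested differed 39.1-fold in mean level. Of 31 obligate subunits (the alpha subunits except the testis form PSMA8, the constitutive beta subunits, the ATPases, and the lid and other non-ATPase subunits), 24 had a mean level of at least 50 and 19 of at least 100, with a median of 153.3. Together the 48 genes summed to 6361 with neither treatment, 6286 with let-7a, 6725 with siMYCN and 6343 with both. As a share of the nuclear total these sums were 1.08%, 1.07%, 1.10% and 1.04%, so the 4 libraries lay within a narrow range.

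**Figure D1:**
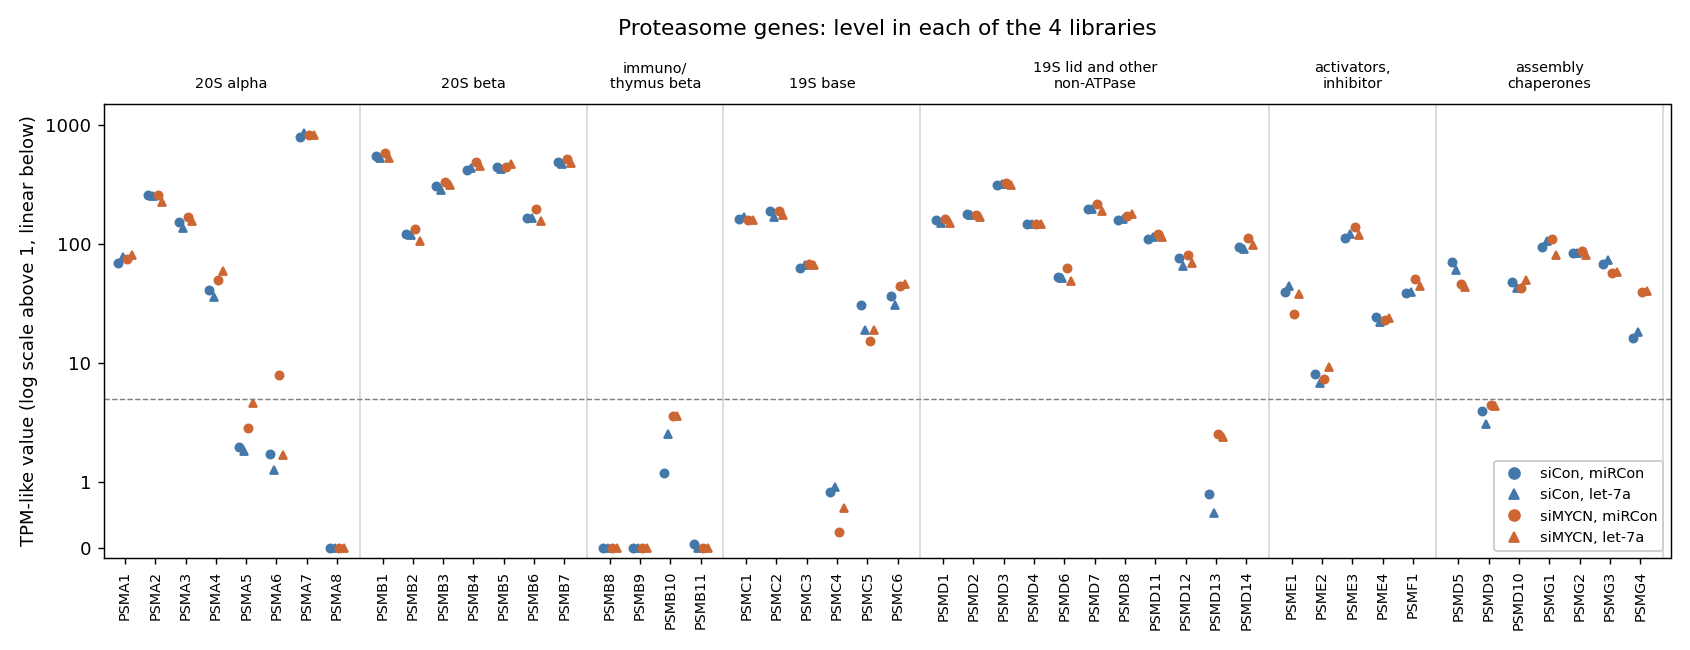
Level of each of the 48 proteasome genes in each library, grouped by role; the vertical axis is the TPM-like value, logarithmic above 1 and linear below, and the dashed line is the mean level of 5 required for testing. Colour gives the siRNA and shape the mimic, with 1 library per point; most subunits lie above 50, while PSMA5, PSMA6, PSMC4 and PSMD13 lie near or below 5.

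Among the core subunits, PSMA7, an alpha subunit, had the highest level of all members, at 788 with neither treatment, 846 with let-7a, 822 with siMYCN and 811 with both. PSMB1, a non-catalytic beta subunit, followed at 548, 522, 574 and 523 in the same order. The catalytic subunit PSMB5, of the chymotrypsin-like site, was at 440, 423, 440 and 468. PSMB7, of the trypsin-like site, was at 489, 466, 514 and 472, and PSMB6, of the caspase-like site, was lower at 165, 164, 195 and 154. The 3 catalytic subunits sit once each in every beta ring, and their transcript levels were not equal.

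A group of 4 obligate subunits stood far below the rest. The alpha subunit PSMA5 was at 1.95, 1.80, 2.81 and 4.57, and PSMA6, another, was at 1.71, 1.26, 7.95 and 1.69, so that 1 library alone set its mean. The ATPase PSMC4 was at 0.840, 0.917, 0.235 and 0.606, and the lid subunit PSMD13 was at 0.822, 0.533, 2.49 and 2.38. Each belongs to the same particle as subunits present at more than 100. PSMD13 overlaps SIRT3 on the opposite strand in GENCODE 29, and a protein-coding gene model overlaps PSMA6 on the same strand. That annotation names 4 pseudogenes of PSMA6 and none of PSMA5, PSMC4 or PSMD13. PSMC1, with 13 named pseudogenes, was at 160, 168, 158 and 157. How the authors' counting divided reads between such loci is not stated in any source used here, and its part in these levels was not tested.

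The immunoproteasome subunits, which replace the catalytic ones in interferon-stimulated and lymphoid cells, were listed at low values or at 0. The file holds no read counts, and the obligate ATPase PSMC4 was under 1 in every library as well, so these values do not show that the genes were silent. PSMB8 and PSMB9 were listed at 0 in all 4 libraries, as was the testis subunit PSMA8. PSMB10 was at 1.19, 2.53, 3.54 and 3.58, and the thymus subunit PSMB11 was at 0.053 in 1 library and 0 in the others. Of 18 antigen presentation and interferon genes, 4 reached the level filter and 8 had a mean under 1. TAP1, the peptide transporter whose gene neighbours PSMB9, was also listed at 0 in every library. B2M, the light chain of class I molecules, was at 14.4, 11.3, 6.21 and 16.0.

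Among the proteasome's regulators, the nuclear activator PSME3 was the most abundant, at 112, 120, 138 and 118. PSME1 and PSME2, which together form the interferon-inducible activator, were at 39.4, 44.5, 25.8 and 37.96 and at 8.05, 6.74, 7.29 and 9.20. The lowest of the PSME1 values was with siMYCN alone, a library in which PSME2 was not the lowest. PSME4, the nuclear activator linked to acetylated histones, stayed between 21.8 and 24.3 in every library. PSMF1, an inhibitor of the core, was at 38.2, 39.1, 50.7 and 43.9.

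The first comparison asked how siMYCN, an siRNA against MYCN, changed these genes. Differences are log2 of (value + 1), siMYCN minus siCon, fitted with limma over both mimics in the 9324 genes with a mean of at least 5. With 1 library per group, the SE and p of a fit rest on the departure of the 2 pairs from each other and largely on the other genes, and they assume that the effects of siRNA and mimic add. Of the 48 proteasome genes, 38 were tested, and each of these was at 6.74 or above in every library, so none passed the filter through 1 group alone. PSMA5, PSMA6, PSMA8, PSMB8, PSMB9, PSMB10, PSMB11, PSMC4, PSMD9 and PSMD13 were not tested.

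With siMYCN, 1 proteasome gene was called higher and none was called lower, where 2.07% of all tested genes were called higher and 1.36% lower. The 1 gene called is 2.63% of the 38, near the background share. At an unadjusted p under 0.05, 3 were higher (17.0% of all tested genes) and 3 lower (9.4%). Both siMYCN libraries lay above both siCon libraries for 9 of the 38 (35.6% of all tested genes) and below for 5 (21.1%).

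The gene called higher was PSMG4 (chromosome 6, 3231403 to 3303373, plus strand, GRCh38), a small chaperone that pairs with PSMG3 and guides the alpha ring. It was at 16.0 with neither treatment, 18.2 with let-7a alone, 39.6 with siMYCN alone and 40.0 with both. The 2 siMYCN libraries were both above both siCon libraries, and the let-7a differences were 0.18 and 0.015 on the log2 scale. The fold was 2.47 with miRCon and 2.20 with let-7a, and the fitted log2 difference was 1.18 ± 0.12 SE (limma, Benjamini-Hochberg adjusted p = 0.0280). That call was lost without limma's mean trend (adjusted p = 0.129) and without the level filter (adjusted p = 0.369), settings in which limma called no gene at all. PSMG4 overlaps TUBB2B, a tubulin gene, on the opposite strand. TUBB2B was at 117, 109, 144 and 145, a log2 difference of 0.36 with limma (Benjamini-Hochberg adjusted p = 0.0673). Whether reads from it entered PSMG4 was not tested, and no source used here says if the counting used strand. SLC22A23, also on the opposite strand, was at 2.59, 2.47, 2.41 and 3.03.

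PSMD5, which binds the ATPase base during assembly, had the lowest fitted siMYCN difference of the tested members. It was at 69.6 and 60.4 in the siCon libraries and at 45.4 and 43.0 in the siMYCN libraries, which do not overlap. The fold was 0.653 with miRCon and 0.712 with let-7a, and the log2 difference of -0.54 ± 0.097 SE missed the threshold narrowly (limma, Benjamini-Hochberg adjusted p = 0.0520). It was called lower when genes below a mean of 20 were left out (limma, Benjamini-Hochberg adjusted p = 0.0381) and when libraries were rescaled by median ratios (adjusted p = 0.0220) or to the total without mitochondrial transcripts (adjusted p = 0.0360). It was not called with a pseudocount of 0.1 or 5, with robust variance, without limma's trend or without the level filter.

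The upstream sequences of these 2 genes are shown because they carry the highest and the lowest fitted difference among the tested members. Each is the 250 bases before a RefSeq transcript start on GRCh38.p14, 5′ to 3′ on the gene's strand. Capitals mark a letter match that a search of both strands found. In PSMG4 (chr6:3258697-3258946, plus strand) it is CCGGAAG, the core that ETS factors bind, read on the opposite strand as CTTCCGG from base -44. In PSMD5 (chr9:120842923-120843172, minus strand) it is TGACNNNGC, the antioxidant response element that NFE2L1 and NFE2L2 bind, at base -134. The PSMG4 window lies inside the GENCODE 29 span of that gene, which begins at 3231403, so the 2 annotations place its start differently.
PSMG4: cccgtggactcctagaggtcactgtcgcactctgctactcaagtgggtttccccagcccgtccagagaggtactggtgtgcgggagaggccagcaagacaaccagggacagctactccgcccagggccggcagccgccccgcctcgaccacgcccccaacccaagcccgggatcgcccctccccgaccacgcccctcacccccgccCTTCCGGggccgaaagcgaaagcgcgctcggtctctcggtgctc
PSMD5: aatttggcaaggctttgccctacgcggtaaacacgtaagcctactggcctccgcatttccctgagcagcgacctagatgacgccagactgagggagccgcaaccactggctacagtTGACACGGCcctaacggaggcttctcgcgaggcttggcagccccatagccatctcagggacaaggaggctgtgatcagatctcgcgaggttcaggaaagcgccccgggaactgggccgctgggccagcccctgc
Neither printed stretch holds CACGTG, the E-box that MYC proteins bind, which says only that these letters are not in this window. Of the 48 members, 42 had an entry in the RefSeq promoter set used, and PSMA7, PSMB1, PSMB6, PSMB7, PSMD4 and PSMG3 had none there. The 42 genes have 51 starts in all. In 300-base windows that add 50 bases after the start, CACGTG was in 3 of the 51 member promoters (5.88%) and in 7.23% of all 34943 promoters. TGACNNNGC was in 15 of 51 (29.4%) against 13.3% of all promoters, CCGGAAG in 15 (29.4%) against 10.2%, and the CCAAT box in 20 (39.2%) against 34.6%. A match is a description of letters, not a site in use.

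The other assembly factors differed in both directions and none passed the test. PSMG3, the partner of PSMG4, was at 66.99 and 72.6 in the siCon libraries and at 56.6 and 57.5 in the siMYCN libraries, a log2 difference of -0.29 ± 0.091 SE (limma, Benjamini-Hochberg adjusted p = 0.128). The partners thus differed in opposite directions, though only PSMG4 passed the test. PSMG2 was nearly level at 83.8, 84.1, 87.5 and 80.9. PSMG1, which pairs with PSMG2, was at 93.1, 105, 109 and 80.5, highest with siMYCN alone and lowest with both. PSMD10, a chaperone of the ATPase ring known as gankyrin, was at 47.5, 42.4, 42.5 and 49.8. PSMD9, also a base chaperone, was at 3.93, 3.08, 4.39 and 4.35 and below the filter. POMP, the maturation factor of the beta ring, was at 196 and 203 in the siCon libraries and at 244 and 225 in the siMYCN libraries, a log2 difference of 0.23 (limma, Benjamini-Hochberg adjusted p = 0.128). PAAF1, a base chaperone outside the symbol rule, was at 3.97 and 4.16 with siCon and at 1.80 and 2.46 with siMYCN, below the filter.

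**Figure D2:**
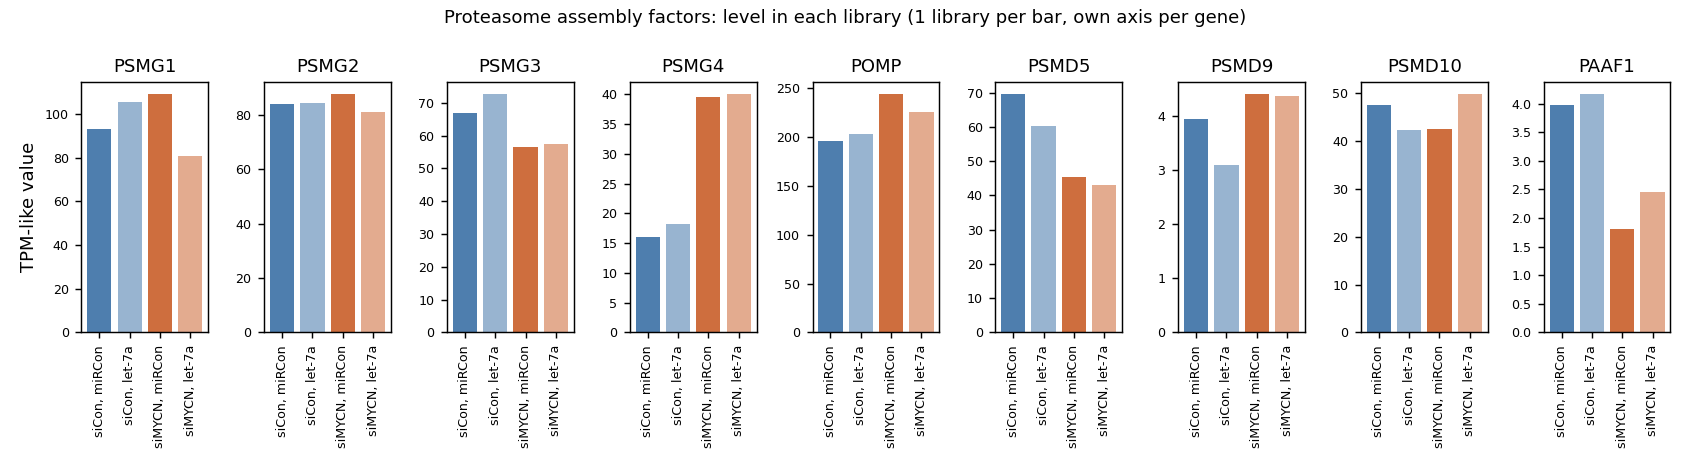
Level (TPM-like value) of 9 assembly factors in the 4 libraries, 1 library per bar, each gene on its own axis from 0. PSMG4 is at 16.0 and 18.2 in the siCon libraries (blue) and 39.6 and 40.0 in the siMYCN libraries (orange), and PSMD5 runs the other way from 69.6 and 60.4 to 45.4 and 43.0.

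Structural subunits varied little with siMYCN. Of 27 tested, 24 had a fitted log2 difference smaller than 0.2 in either direction. The share of all tested genes at that cut was not computed, so this count alone does not set the subunits apart from other genes. The quartiles of the 27 fitted differences were 0.0084 and 0.11, beside -0.13 and 0.25 over all tested genes. Over all 38 members, 26 (68.4%) differed by less than 1.2-fold in both pairs, against 40.4% of all tested genes. Among genes whose mean reached 50 the count was 24 of 29 (82.8%) against 56.3%. The members' median log2 difference was 0.045 and that of all tested genes 0.056. Rescaled to the total without mitochondrial transcripts, the members' median became -0.014, and that of all genes 0.0003. MYCN RNA itself was lowered only to 0.855-fold with miRCon and 0.836-fold with let-7a. Small differences here therefore do not show how these genes respond to a fuller loss of MYCN.

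Most subunits outside that range were of modest level. The alpha subunit PSMA4 was at 41.2 and 35.9 in the siCon libraries and at 49.6 and 59.5 in the siMYCN libraries (log2 difference 0.49 ± 0.14 SE; limma, Benjamini-Hochberg adjusted p = 0.106). The ATPase PSMC6 was at 36.6 and 30.6 against 43.8 and 45.4 (0.40 ± 0.12; adjusted p = 0.12). The ATPase PSMC5 was at 30.5 with neither treatment and at 18.98, 15.2 and 18.91 in the other libraries, so its fitted difference of -0.48 ± 0.24 combines -0.96 in the miRCon pair with -0.0049 in the let-7a pair. PSMC5 overlaps FTSJ3 on the opposite strand, which was at 51.1, 49.7, 59.3 and 62.6.

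Summed by role, the beta subunits were at 2486 with neither treatment and 2666 with siMYCN alone, 7.26% higher, and 3.40% higher in the let-7a pair. The alpha subunits were 5.14% higher with siMYCN in the miRCon pair and -1.11% different in the let-7a pair. The lid and other non-ATPase subunits differed by 6.08% and 0.563%, and the ATPase base by -0.585% and 2.37%. These sums have no test, and their differences are of the size by which 1 pair departs from the other.

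Some subunits were level across all libraries. The ubiquitin receptor PSMD4 was at 147, 146, 146 and 146. The large scaffold PSMD2 was at 177, 173, 175 and 167, and PSMD1, the other scaffold, at 158, 149, 160 and 151. The lid subunit PSMD3 was at 313, 315, 324 and 312. PSMD14, the deubiquitinase of the lid, was at 93.3 and 90.5 with siCon and 112 and 96.7 with siMYCN, a difference of 0.18 ± 0.086 SE (limma, Benjamini-Hochberg adjusted p = 0.256). The remaining subunits are given in the order neither, let-7a, siMYCN, both. Of the alpha subunits, PSMA2 was at 259, 251, 258 and 222, and PSMA3 at 153, 137, 167 and 156. Of the structural beta subunits, PSMB3 was at 306, 280, 328 and 311, and PSMB4 at 417, 430, 483 and 452. Both siMYCN libraries were above both siCon libraries for PSMA3, PSMB3 and PSMB4, and the ranges overlapped for PSMA2. The ATPases PSMC2 and PSMC3 were at 186, 166, 190 and 174, and at 62.3, 66.7, 66.98 and 66.4. Of the lid, PSMD7 was at 195, 196, 215 and 188, PSMD8 at 159, 160, 172 and 176, and PSMD11 at 110, 115, 121 and 114. Only PSMD8 of these 5 kept the siMYCN libraries apart from the siCon libraries, and its log2 difference was 0.12 ± 0.068 SE (limma, Benjamini-Hochberg adjusted p = 0.31). Among regulators, PSME1 differed by -0.41 ± 0.13 (adjusted p = 0.132) and PSMF1 by 0.28 ± 0.11 (adjusted p = 0.193), neither past the threshold.

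**Figure D3:**
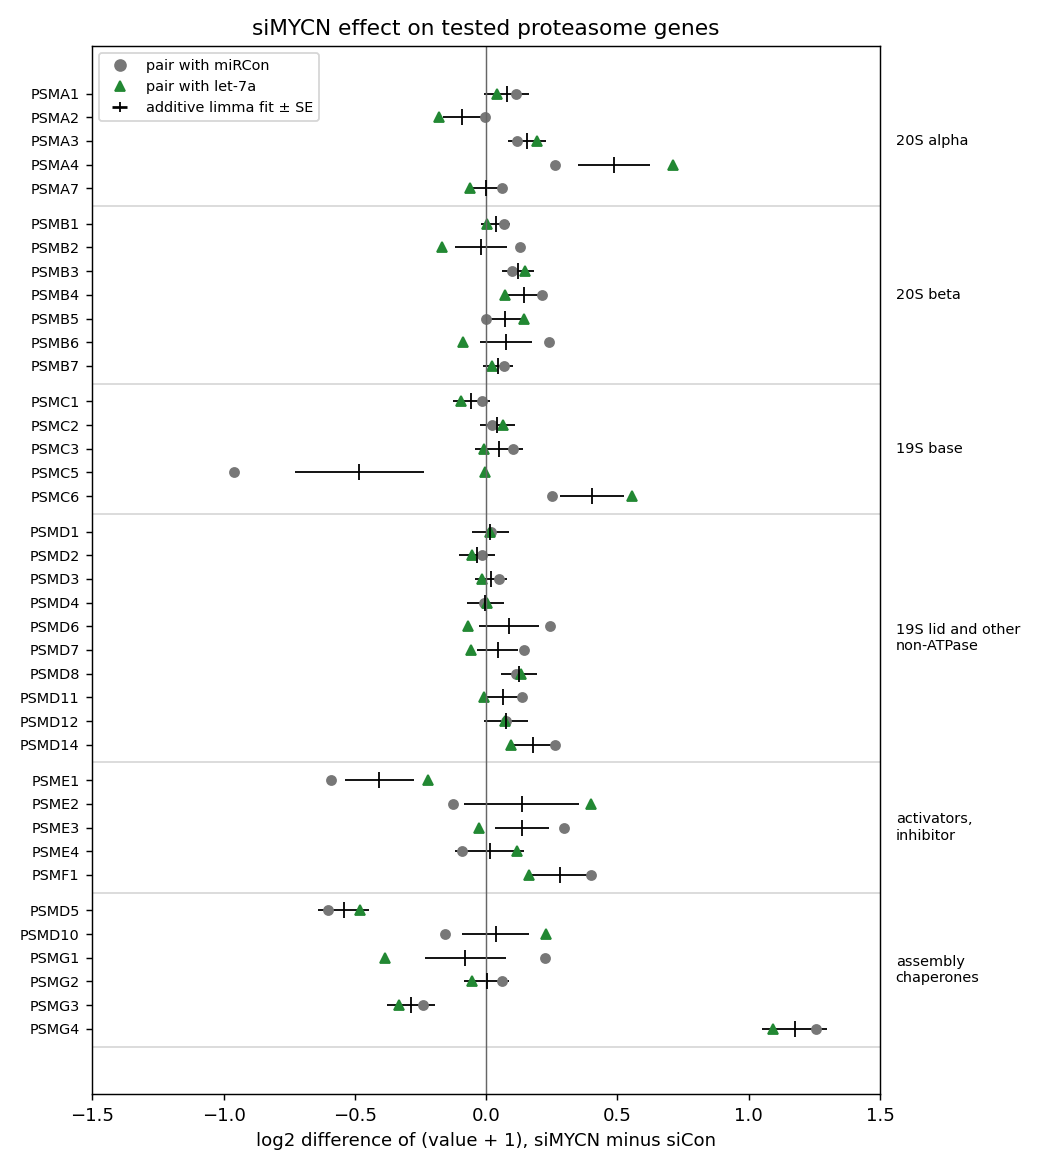
Log2 difference of (value + 1), siMYCN minus siCon, for the 38 tested proteasome genes by role; circles are the pair with miRCon, triangles the pair with let-7a, and ticks with bars the additive limma fit ± SE. Among the fits PSMG4 is highest at 1.18 and PSMD5 lowest at -0.54, the lowest single pair is PSMC5 with miRCon at -0.96, and most subunits lie close to 0.

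The second comparison asked how the let-7a mimic changed the same genes. let-7a recognises messages through its seed, bases 2 to 8, in capitals below. Its mature sequence comes from RefSeq. The 3′ UTR match is shown because it is the single one among the members, from GENCODE 29 on GRCh38, with the word TACCTCA in capitals. Its first 6 bases pair with bases 2 to 7 of the miRNA, its last A lies opposite base 1, and seed base 8 has no Watson-Crick partner.
hsa-let-7a-5p: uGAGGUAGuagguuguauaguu
PSMB2 match: ttacctaatatTACCTCAgaaaggatatg
The longest 3′ UTR of each gene was searched for CTACCTCA, CTACCTC and TACCTCA, taking the longest word present. No member held either of the first 2, which 4.42% and 7.12% of 8914 tested genes held. PSMB2 alone held TACCTCA, against 7.48% of tested genes, and 47 members held none, against 81% of tested genes. The members' longest 3′ UTRs ran from 44 bases in PSME2 to 4226 in PSMG4. A shorter UTR has less room for a word, and these shares are not adjusted for length. The PSMB2 match is on chromosome 1, 35603087 to 35603115, minus strand, at base 163 of a UTR of 3723 bases.

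PSMB2, a beta subunit, was at 122 with neither treatment, 118 with let-7a, 133 with siMYCN and 105 with both. The let-7a library was the lower of each pair, by -0.043 on the log2 scale with siCon and -0.34 with siMYCN (fit -0.19; limma, Benjamini-Hochberg adjusted p = 0.686). PSMB6, which holds no word, had a like pattern at -0.0052 and -0.34.

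No proteasome gene passed the test with let-7a in either direction, and no gene of the table did (0.0% higher and 0.0% lower by limma with Benjamini-Hochberg adjustment; smallest adjusted p = 0.663). The known target LIN28B was among the genes that did not pass, so a missed call here does not show an absent effect. At an unadjusted p under 0.05, 1 member was higher (2.77% of all tested genes) and 0 were lower (4.71%). The member was PSME1, at 0.17 in the siCon pair and 0.54 in the siMYCN pair. Both let-7a libraries lay above both miRCon libraries for 1 member, PSMA1 (8.9% of all tested genes), which was at 68.6 and 74.3 without let-7a and 77.3 and 79.6 with it. They lay below for 11 of 38 (28.9% of members; 16.2% of all tested genes), a count that was not tested.

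The let-7a differences were small. Of the 38, 31 (81.6%) differed by less than 1.2-fold in both pairs, against 58.0% of all tested genes, and among genes whose mean reached 50 the count was 25 of 29 (86.2%) against 78.7%. The members' median log2 difference was -0.057, beside -0.031 over all tested genes. The lid subunit PSMD12 had the lowest fitted let-7a difference of the 38, at 75.6 and 79.8 without let-7a and 65.1 and 68.6 with it (fit -0.21; limma, Benjamini-Hochberg adjusted p = 0.663). The lid subunit PSMD6 was at 52.7 and 62.6 without let-7a and 51.4 and 48.9 with it. The beta subunits together were -3.33% different with siCon and -6.81% with siMYCN.

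**Figure D4:**
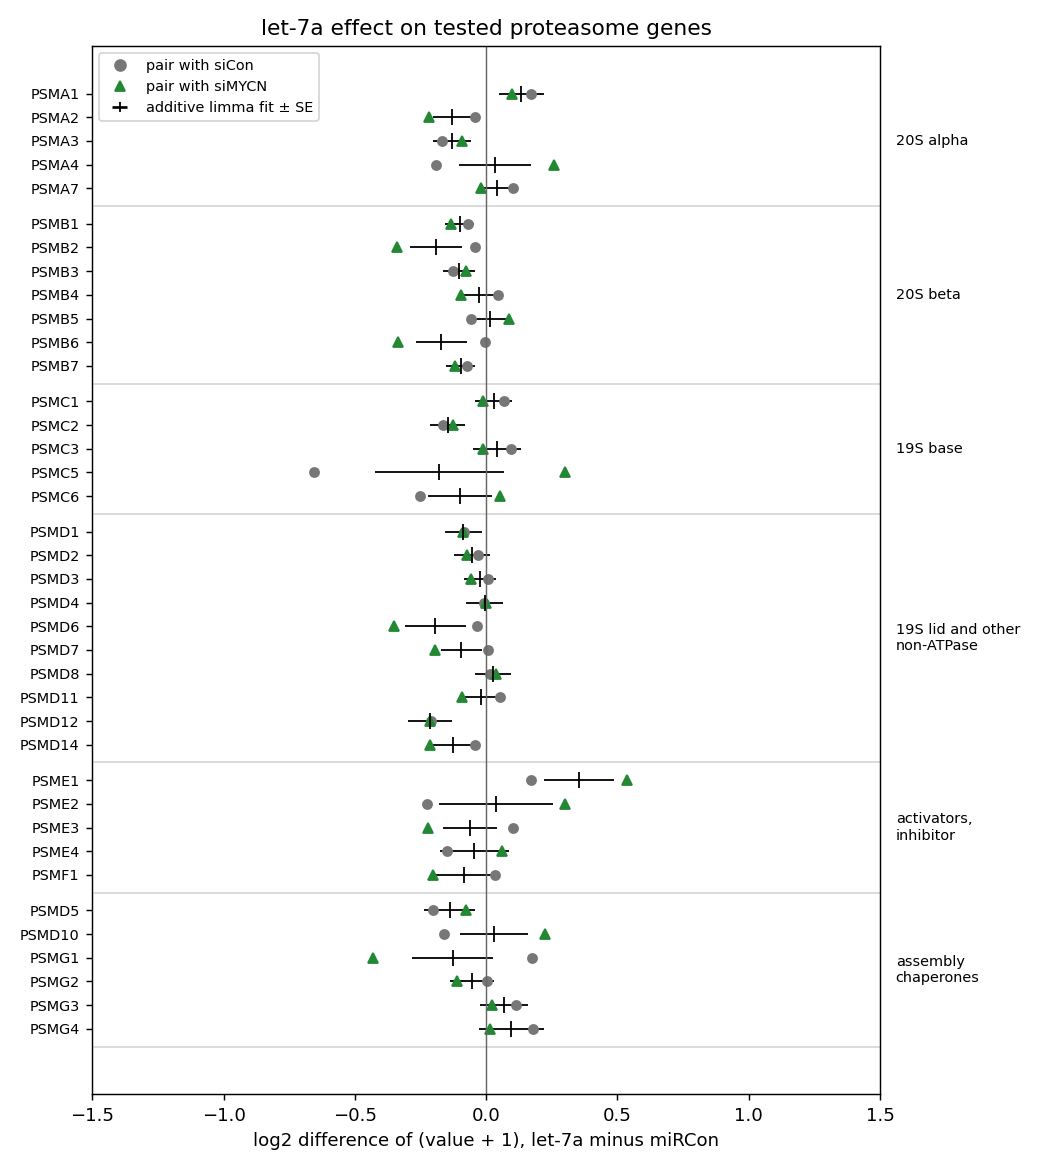
Log2 difference of (value + 1), let-7a minus miRCon, for the 38 tested proteasome genes by role; circles are the pair with siCon, triangles the pair with siMYCN, and ticks with bars the additive limma fit ± SE. Most lie within 0.2 of 0; PSMC5 has its 2 pairs on opposite sides at -0.66 and 0.30.

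Adding both treatments left the members close to the library with neither treatment. The median log2 difference of both against neither was -0.017, beside 0.028 over all tested genes. The let-7a difference with siMYCN minus that with siCon had a median of -0.065, beside -0.015. In PSMG1 that difference was -0.61, from 0.18 to -0.43, and in PSMC5 it was 0.95. Single libraries decide these values and they have no test. PSMG4 differed by 1.27 between both treatments and neither, and PSMD5 by -0.68.

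Genes that work beside the proteasome were counted in the same fits, where 2.07% of all tested genes were called higher with siMYCN and 1.36% lower, and 17.0% were higher and 9.4% lower at an unadjusted p under 0.05. Of 17 tested ubiquitin-like partners and proteasome-bound factors none was called with siMYCN, and at an unadjusted p under 0.05, 2 were higher and 1 lower. UBQLN2, a shuttle that carries ubiquitinated proteins, differed by 0.44, and UCHL5, a deubiquitinase of the cap, by -0.31. Of 6 tested genes of the NFE2L1 axis none was called, with a median of 0.31, and 3 were higher at an unadjusted p under 0.05. NFE2L1 itself was at 65.3, 66.9, 71.0 and 73.9, and NGLY1, which activates it, was at 3.59, 3.38, 1.08 and 1.40, below the filter. MAFF and MAFG, small MAF partners of NFE2L1, differed by 0.66 (limma, Benjamini-Hochberg adjusted p = 0.098) and 0.37 (adjusted p = 0.0948), and NFE2L2 by 0.31.

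Of 13 genes around VCP, the segregase that extracts ubiquitinated proteins, none was called (median 0.19), and 2 were higher at an unadjusted p under 0.05. DERL1, of the endoplasmic reticulum channel, differed by 0.47 (limma, Benjamini-Hochberg adjusted p = 0.0573) and NPLOC4, a VCP cofactor, by 0.44. UBXN1, of the same list, went the other way with a difference of -0.39, lower with siMYCN in both pairs (-0.31 and -0.46). Of 6 ubiquitin genes 1 was called: RPS27A, which encodes ubiquitin fused to a ribosomal protein, rose from 262 and 269 to 341 and 343 (0.36 ± 0.060 SE; limma, Benjamini-Hochberg adjusted p = 0.0483). That call was lost in 6 of 8 alternatives, with adjusted p from 0.0372 to 0.369 over the 8. The eIF3 complex shares its subunit fold with the lid, as does the COP9 signalosome. Of 11 tested eIF3 genes EIF3B was called, rising from 327 and 350 to 446 and 444 (0.39 ± 0.061 SE; adjusted p = 0.0437), with a list median of -0.091. That call was lost without limma's trend (adjusted p = 0.161) and without the filter (adjusted p = 0.369). At an unadjusted p under 0.05, 1 eIF3 gene was higher and 4 were lower. Of 7 tested COP9 genes and 8 CCT chaperonin genes none was called, with medians of 0.17 and -0.018. At an unadjusted p under 0.05, no COP9 gene passed, and 1 CCT gene was higher and 1 lower. None of these lists, nor that of antigen presentation (4 tested), had a gene called with let-7a.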

How the data were processed

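PolyA RNA from 4 libraries was measured, and groups came from the labels' source names. The deposited table holds a natural log value per gene and library. The base was settled from its sums: exp(x) - 1 gave 855811 to 862049 per library, where base 2 would give 143211 to 147588. The submitters' processing notes name HISAT 0.1.6, Salmon 0.3.2 and GRCh38 without saying what each was used for. Gene models, filters and the log transform were not given in the sources used here. Read depth cannot be had from back-transformed, TPM-like values, so no counting interval was possible.

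Of 19837 rows, 11 vector rows were set aside, and 28 rows carry gene names turned into dates. Genes with a mean of at least 5 were tested with limma 3.58.1 in R 4.3.3 on log2(value + 1), with an additive model of siRNA and mimic, 1 residual and 4.30 prior degrees of freedom, and Benjamini-Hochberg adjustment over all 9324 genes at 0.05. The code was tested on simulated data. Tables and figures used Python 3.11.15, pandas 2.3.3, NumPy 2.4.6 and matplotlib 3.10.9. A fold on the log2(value + 1) scale understates the change of low genes. GENCODE 29 gave coordinates and 3′ UTRs; 20 of the 48 members overlap another protein-coding gene and 12 have named pseudogenes.

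The settings varied were the pseudocount (0.1 and 5), the filter (none, or a mean of 20 or more), 2 rescalings (median ratios, and the total without mitochondrial transcripts), limma without its trend or with robust variance, and each pair alone. The members and lists were chosen with earlier results of these data known. Named genes were all 48 members, MYCN, LIN28B and, per related list, the genes called, else those with the largest change shared by both pairs. The rule allowed up to 4 of these per list; it was held to 3 after their values were seen. Overlapping genes, NFE2L1, NGLY1, PAAF1, TAP1, B2M and the markers were named in addition, after their values were seen.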

Additional observations from a re-analysis of the deposited data

Results flagged for a closer look

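PSMC5, an ATPase of the 19S base, had let-7a differences in opposite directions under the 2 siRNAs, each of at least 1.2-fold. The log2 difference was -0.66 with siCon and 0.30 with siMYCN, so the 2 differ by 0.95. This difference was not tested, since each value rests on 1 library against 1. Its level of 30.5 with neither treatment stands above the 15.2 to 18.98 of the other 3 libraries.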

How the results depend on the processing

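No paired analysis was possible because each group has 1 library and the labels give no replicate numbers; leaving a library out leaves no residual degrees of freedom. Without limma's trend, and without the filter, 0 members were called higher with siMYCN in place of 1, and no gene of the table was called. With a filter at 20, under median ratios and under the total without mitochondrial transcripts (the nuclear total), 1 member, PSMD5, was called lower in place of 0. RPS27A lost its call in 6 alternatives, and EIF3B without the trend and without the filter. All-gene calls were 193 higher and 127 lower, and became 343 and 408 under median ratios, 203 and 263 under the nuclear total and 310 and 196 with the filter at 20. These 2 rescalings moved the median siMYCN difference of all genes from 0.056 to -0.0030 and 0.0003. The members' siMYCN median of 0.045 became -0.017 under median ratios and -0.014 under the nuclear total, their let-7a median of -0.057 became -0.024 under median ratios, and the median difference of let-7a effects became -0.022 without the filter. Log2 siMYCN sums became, under median ratios and the nuclear total, 0.013 and 0.016 for 20S beta, -0.049 and -0.046 for the base, and -0.015 and -0.012 for the lid; the let-7a base sum became -0.024 under median ratios. Fitted siMYCN differences changed sign under those rescalings, in the same order, for PSMD10 (-0.025, -0.021), PSMC2 (-0.018, -0.015), PSMD3 (-0.045, -0.041), PSMD7 (-0.018, -0.014), PSMG2 (-0.058, -0.055), PSMD1 (-0.045, -0.042), PSME4 (-0.046, -0.042), PSMB1 (-0.026, -0.022), PSMA7 (-0.061, -0.058), PSMC3 (-0.013, -0.0094) and PSMB7 (-0.016, -0.013). Let-7a differences did so under median ratios for PSMB4 (0.0084), PSMD3 (0.010), PSMD4 (0.030, and 0.0039 under the nuclear total) and PSMD11 (0.015). Rescaling a library moves its tested genes by nearly the same amount on the log2 scale, so small differences can change sign. Why the libraries differed in scale was not tested. None of these differences was past the threshold.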
